A study of Mus musculus with 14 samples.

Results

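OT-I CD8+ T cells from mice given soluble whole ovalbumin (OVA, 3 libraries) were compared with OT-I cells from mice given the free peptide SIINFEKL (2 libraries), across all genes of the deposited table. These 5 libraries were chosen by their labelled treatment out of the 14 libraries of the series. In every group, CFSE-labelled CD8+ T cells of OT-I donors, whose transgenic T cell receptor recognises SIINFEKL, were moved into CD45.2+ C57BL/6 recipients on day 0, and the mice are labelled as 8 to 12 weeks old. On day 1 the OVA mice received 223 pmol of ovalbumin by vein and the SIINFEKL mice received 223 pmol of peptide, so the doses were equal in moles and not in mass. On day 4 the transferred cells were sorted from the spleen as viable cells positive for CD3e, CD8 and CD45.1, and poly(A) RNA was sequenced as stranded libraries. OT-I cells from mice that received no antigen (Naive, 3 libraries) gave the resting level. Libraries of the groups ERY1-OVA and TER119-SIINFEKL (3 each), which received erythrocyte-binding forms of the same antigens, were not themselves compared. They entered the estimate of the spread, the filter on mean expression, the principal components and the alternative scalings. The recipients kept their own CD8+ T cells, which the CD45.1 gate was set to leave out. The labels do not say whether a library came from 1 mouse or from a pool, so the p-values below measure only the spread between these libraries.

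Whole ovalbumin reaches MHC class I only after an antigen-presenting cell has taken it up and cut it, a route known as cross-presentation, whereas a free peptide of the right length can bind class I directly at the surface of many kinds of cell. A CD8+ T cell that meets antigen together with co-stimulation divides, raises its synthesis of nucleotides, protein and glycolytic enzymes, and makes granzymes and cytokines. Antigen met without those signals can leave a state called anergy, in which inhibitory receptors and attenuators of T cell receptor signalling are present and division is limited.

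The authors deposited log2 RPKM (read density scaled to gene length and library size) for 10106 genes, of which the 9793 with a mean of at least 1 RPKM were tested. The counts behind these values were not used here, and how deeply each library was sequenced is unknown. The sorted cells had the transcripts of CD8+ T cells: Cd8a lay between 265 and 276 RPKM in the OVA libraries and at 358 and 318 RPKM in the SIINFEKL libraries, and Cd4 lay at or below 1.01 RPKM in all 5. The 3 OVA libraries were close to each other (root mean square difference of log2 values 0.206 to 0.383), while the 2 SIINFEKL libraries differed by 0.589, and 661 genes were over 2-fold apart between them. The root mean square SD within a group was 0.226 for OVA and 0.416 for SIINFEKL, and the 4 groups other than SIINFEKL lay between 0.226 and 0.255. The test shares a single spread per gene over all 5 groups. Its standard errors are therefore too small for genes that vary more between the SIINFEKL libraries than elsewhere. Results are also given without each SIINFEKL library, to show how far sizes and directions depend on 1 library. With only 1 SIINFEKL library left, the spread between the 2 does not enter the fit. Passing in such a fit is therefore no check on that spread. OVA replicate 1 stood apart from the other OVA libraries in a tilt towards short genes (rank correlation of its deviation with gene length -0.469) and in MHC class II transcripts, whose 4 markers summed to 68.3, 17.5 and 11.4 RPKM in OVA replicates 1 to 3, against 11.5 and 12.9 RPKM in the SIINFEKL libraries. In SIINFEKL replicate 1 the CD4-lineage factor Zbtb7b stood at 9.93 RPKM, against 0.84 RPKM in SIINFEKL replicate 2 and 0.93 to 1.01 RPKM in the OVA libraries.

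Markers of other cell types were low. Of 4 neutrophil and 3 platelet markers none is among the genes used here, and 2 of 7 erythroid markers summed to between 2.73 and 8.54 RPKM after OVA and 1.53 and 2.27 RPKM after SIINFEKL. The 2 of 3 NK cell markers found summed to between 3.49 and 7.58 RPKM after OVA and 4.20 and 4.38 RPKM after SIINFEKL, and the 4 of 8 macrophage and dendritic cell markers to between 20.6 and 39.3 RPKM and 18.7 and 20.0 RPKM, in the same order of groups. Of 6 B cell markers, Cd79b and Cd22 are in the table, and their sum lay between 15.1 and 21.8 RPKM after OVA and at 21.5 and 12.8 RPKM after SIINFEKL. Cd22, a lectin that dampens B cell receptor signals, had 6.82, 6.41 and 6.97 RPKM after OVA and 3.87 and 3.57 RPKM after SIINFEKL, against 0.317 to 0.435 RPKM in Naive cells, and was higher after OVA (log2 fold change 0.86 ± 0.16, SE, adjusted p = 0.000736 by limma). The endothelial and T cell surface protein Pecam1 was lower after OVA, with 21.0, 27.1 and 24.1 RPKM after OVA, against 65.7 and 48.2 RPKM after SIINFEKL (log2 fold change -1.24 ± 0.15, adjusted p = 4.39e-05). Cd22 and Pecam1 were singled out after their values were seen.

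A large share of the transcriptome differed between the 2 soluble antigens. By limma with Benjamini-Hochberg adjustment, 4135 of 9793 genes (42.2%) passed an adjusted p of 0.05. Of these, 2189 (22.4% of genes tested) were higher after OVA and 1946 (19.9%) were lower, and 1097 (11.2%) differed by at least 2-fold, 807 of them higher and 290 lower after OVA. The values of the groups did not overlap in 4107 of the 4135 genes. Over all 9793 genes, all OVA values lay above the SIINFEKL values in 2961 (30.2%) and below them in 3051 (31.2%). With so few libraries a lack of overlap is common, so it is not separate evidence for the calls. With SIINFEKL replicate 1 left out 1857 genes (19%) were higher and 1373 (14%) lower, and with replicate 2 left out 1933 (19.7%) were higher and 1578 (16.1%) lower. In all, 2174 genes passed in the same direction with both SIINFEKL libraries and with either alone, 1376 of them higher and 798 lower after OVA. With quantile normalization, which moved the median log2 fold change of all genes to -0.09 from -0.02, the split was 1871 higher and 2399 lower. On the first principal component of all 14 libraries (63.6% of the variance) the OVA libraries lay between 21.6 and 29.7, SIINFEKL replicate 1 at -11.9, SIINFEKL replicate 2 at -48.3 and the Naive libraries between -61.3 and -55.9. SIINFEKL replicate 2 therefore lay nearer to Naive cells on this axis than SIINFEKL replicate 1 did, and both lay between OVA and Naive.

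**Figure D1:**
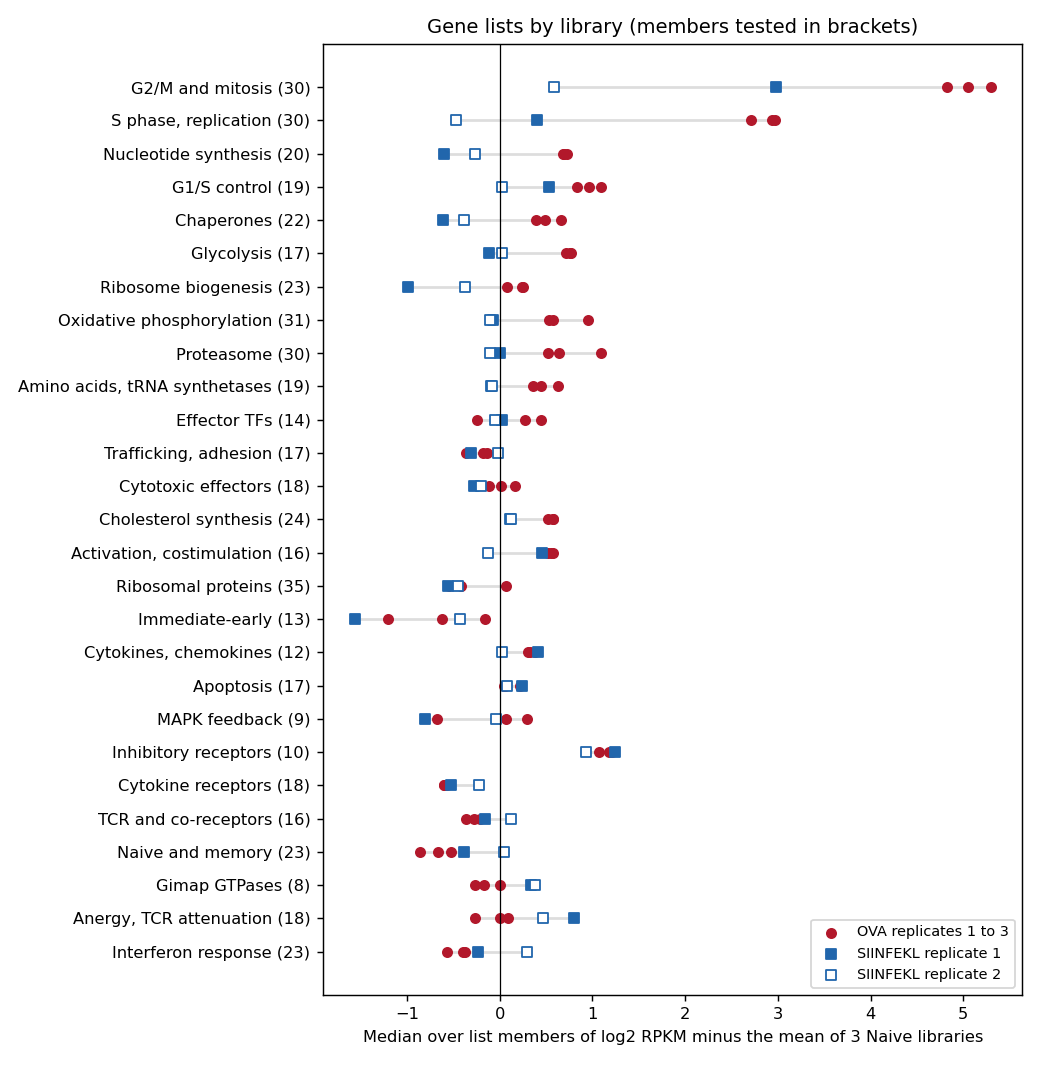
Median over the members of each gene list of log2 RPKM minus the mean of the 3 Naive libraries, 1 symbol per library, for OVA (red dots), SIINFEKL replicate 1 (filled squares) and SIINFEKL replicate 2 (open squares), with the number of members tested in brackets and lists ordered by their median log2 fold change. The G2/M list lies at 4.82 to 5.29 after OVA and at 2.98 and 0.58 after SIINFEKL, and the ribosome biogenesis list at 0.08 to 0.25 after OVA and at -0.99 and -0.38 after SIINFEKL.

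Transcripts of cell division separated the antigens most widely. All 30 G2/M and mitosis genes tested (of 32 listed) and all 30 S phase and replication genes were higher after OVA, where 22.4% of all genes were, and no value overlapped between the groups. The median log2 fold change was 3.32 for G2/M and mitosis and 3.03 for S phase, against -0.02 over all genes. The size depended on the SIINFEKL library. The G2/M median was 4.51 without SIINFEKL replicate 1 and 2.12 without replicate 2. The S phase median was 3.56 and 2.51, in the same order. All 30 G2/M genes were higher in SIINFEKL replicate 1 than in replicate 2, by a median of 2.31. In bulk RNA, fewer dividing cells and less of these transcripts in each cell cannot be told apart.

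Members of both lists are known for shared promoter elements, and the promoters of the 2 members of each list with the smallest adjusted p that hold the searched motifs are shown (both TTTGAA and CCAAT for G2/M), since these genes moved together. The letters are those of RefSeq on GRCm38.p6, 5′ to 3′ on the strand of the gene, from 250 bases before to 50 after the annotated start. Capitals mark TTTGAA (the CHR element of G2/M genes) and CCAAT in Cdc20 and Top2a, and TTGGCGC or TTCGCGC (E2F-type motifs) in Mcm5 and Mcm7. Both strands were searched, so a motif can appear as its reverse complement, and in Mcm5 and Mcm7 a run of capitals holds both E2F-type motifs, which overlap.
Cdc20 (chr4:118437294-118437593, minus strand): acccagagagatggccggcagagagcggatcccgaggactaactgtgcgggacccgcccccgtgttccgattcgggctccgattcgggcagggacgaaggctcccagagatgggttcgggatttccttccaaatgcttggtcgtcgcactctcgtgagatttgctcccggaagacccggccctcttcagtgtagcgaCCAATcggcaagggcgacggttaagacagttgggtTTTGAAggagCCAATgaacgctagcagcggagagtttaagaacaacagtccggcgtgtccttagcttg
Top2a (chr11:99024140-99024439, minus strand): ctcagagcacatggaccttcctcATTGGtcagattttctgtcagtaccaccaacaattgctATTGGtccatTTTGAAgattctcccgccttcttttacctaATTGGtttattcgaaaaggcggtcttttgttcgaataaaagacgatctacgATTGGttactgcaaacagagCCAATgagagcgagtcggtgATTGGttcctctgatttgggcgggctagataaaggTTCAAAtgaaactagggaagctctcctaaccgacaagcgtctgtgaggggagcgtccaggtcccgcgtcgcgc
Mcm5 (chr8:75109259-75109558, plus strand): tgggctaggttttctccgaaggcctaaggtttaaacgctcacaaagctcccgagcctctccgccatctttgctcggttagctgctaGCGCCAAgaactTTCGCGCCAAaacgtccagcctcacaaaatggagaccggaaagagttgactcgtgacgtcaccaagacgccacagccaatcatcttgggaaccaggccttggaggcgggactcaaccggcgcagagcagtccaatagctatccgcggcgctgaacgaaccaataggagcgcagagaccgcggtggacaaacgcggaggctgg
Mcm7 (chr5:138171834-138172133, minus strand): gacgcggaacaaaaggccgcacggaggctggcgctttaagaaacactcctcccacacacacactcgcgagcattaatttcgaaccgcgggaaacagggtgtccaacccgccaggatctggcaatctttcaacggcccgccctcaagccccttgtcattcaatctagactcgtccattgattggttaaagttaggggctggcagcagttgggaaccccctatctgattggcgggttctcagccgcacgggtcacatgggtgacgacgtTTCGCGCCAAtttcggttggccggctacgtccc

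In Cdc20 the TTTGAA starts 18 bases before the annotated start and lies between CCAAT motifs that start 53 and 8 bases before it. In Mcm5 the E2F-type motifs start between 164 and 149 bases before the annotated start, and in Mcm7 they start 18 and 21 bases after it. These distances depend on the start used. In GENCODE the Mcm5 gene starts at 75109569, beyond the printed bases, and the Mcm7 gene at 138172422, upstream of them. Bases 16 to 45 after the start used here lay in 0 of 5 Mcm5 and 1 of 10 Mcm7 GENCODE transcripts. They lay in 1 of 3 for Cdc20 and 2 of 7 for Top2a. RefSeq promoters were found for 26 of the 30 G2/M genes, and 18 of these (69.2%) hold TTTGAA, against 14.4% of the 7703 tested genes with a promoter and 17.9% of all 32851 promoters. TTTGAA together with CCAAT occurs in 61.5% of these G2/M genes and in 6.21% of tested genes. TTGGCGC or TTCGCGC occurs in 11 of 25 S phase genes with a promoter (44.0%), against 8.91% of tested genes and 3.89% of all promoters. These are matches of letters and not measured binding sites.

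Among the genes of replication, Orc1, a subunit of the complex that marks origins (chr4:108579423-108614833, GRCm38), had the largest rise among genes whose higher group averaged at least 4 RPKM. Its log2 RPKM was 3.19, 2.42 and 2.90 after OVA and -1.18 and -2.99 after SIINFEKL, against a mean of -1.85 in Naive cells (log2 fold change 4.92 ± 0.40, adjusted p = 1.67e-06). Adding 1 RPKM before the logarithm lowered that fold change to 2.68, since the SIINFEKL values are near the low end of the scale. Mcm10, which helps the replicative helicase to start, had 3.60, 3.70 and 4.04 after OVA and 0.77 and -2.09 after SIINFEKL (4.44 ± 0.54, adjusted p = 3.98e-05). Gins1, part of the active helicase, was higher by 4.13 ± 0.40 (adjusted p = 5.52e-06), and Clspn, the replication checkpoint mediator claspin, by 4.16 ± 0.62 (adjusted p = 0.000169). Fignl1, an AAA ATPase of DNA repair, rose by 4.30 ± 0.61, Shcbp1 by 4.13 ± 0.60 and the gene listed as 2810417H13Rik by 4.23 ± 0.53 (adjusted p between 4.41e-05 and 0.000146). These 7 genes were all higher in SIINFEKL replicate 1 than in replicate 2. Against replicate 1 alone Clspn differed by 2.61 and Fignl1 by 2.68.

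Other replication genes lay closer together in the SIINFEKL libraries than those above. Mcm7, a subunit of the helicase (chr5 promoter above), had 7.29, 7.32 and 7.50 after OVA and 4.76 and 4.49 after SIINFEKL, against 5.01 in Naive cells (2.74 ± 0.15, adjusted p = 6.84e-08). Mcm5, of the same helicase, had 7.06, 7.15 and 7.24 after OVA and 4.23 and 3.57 after SIINFEKL (3.25 ± 0.17, adjusted p = 6.84e-08). Fen1, the flap nuclease of lagging-strand synthesis, was higher by 2.62 ± 0.16 (adjusted p = 2.12e-07), and Rrm1, the large subunit of ribonucleotide reductase, by 3.14 ± 0.18 (adjusted p = 1.29e-07). For Mcm7, Mcm5 and Fen1 neither SIINFEKL library exceeded the highest Naive library, and every OVA library did. All 30 S phase genes lay above every Naive library after OVA, where 28.7% of all genes did. After SIINFEKL 1 gene of the list lay above Naive in both libraries, where 21.4% of all genes did. In both SIINFEKL libraries 6 genes of the list lay below Naive, a share near the 24.8% of all genes that did.

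Mitotic genes showed the gap between the SIINFEKL libraries most clearly. Ccnb1, cyclin B1, had 6.04, 5.69 and 6.03 after OVA and 3.57 and 1.68 after SIINFEKL, against 0.31 in Naive cells (3.30 ± 0.36, adjusted p = 1.74e-05). Cdc20, an activator of the anaphase-promoting complex, had 6.05, 6.06 and 6.15 after OVA and 3.84 and 2.01 after SIINFEKL (3.16 ± 0.35, adjusted p = 1.74e-05). Top2a, the topoisomerase that separates sister chromatids, had 6.62, 6.88 and 7.21 after OVA and 4.79 and 2.95 after SIINFEKL (3.03 ± 0.39, adjusted p = 5.55e-05). Kif20a, a kinesin of cytokinesis, rose by 3.41 ± 0.41 and Ncaph, a condensin subunit, by 2.96 ± 0.32. Mki67, which encodes the division marker Ki-67, had 5.44, 5.96 and 6.16 after OVA and 4.40 and 1.53 after SIINFEKL (2.89 ± 0.62, adjusted p = 0.00226), and the difference was 4.32 without SIINFEKL replicate 1 and 1.45 without replicate 2. Both SIINFEKL libraries lay above all Naive libraries in 20 of the 30 G2/M genes, where 21.4% of all genes did. The mitotic transcripts of the SIINFEKL cells were thus between those of OVA and Naive cells in most members.

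**Figure D2:**
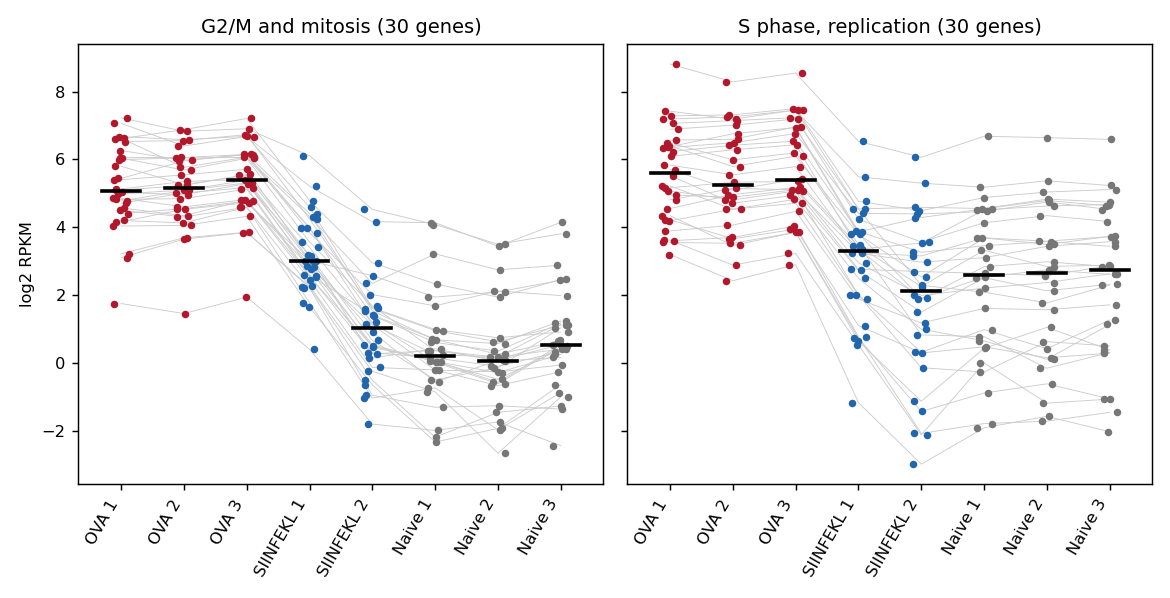
Log2 RPKM of the 30 G2/M and mitosis genes (left) and the 30 S phase genes (right) in each OVA, SIINFEKL and Naive library; dots are genes, thin lines join the same gene, and bars are medians. All genes of both panels are higher in each OVA library than in either SIINFEKL library, and the 30 G2/M genes are higher in SIINFEKL replicate 1 than in replicate 2.

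Genes that control entry into S phase rose in part. Over all genes 22.4% were higher and 19.9% lower after OVA, and the share of lower genes in this list was below the latter. Of 19 members tested, 10 were higher and 3 lower after OVA, with a median of 1.10 (11 and 3 without SIINFEKL replicate 1, 9 and 2 without replicate 2). Ccne1, cyclin E1, had 5.44, 5.04 and 5.22 after OVA and 3.14 and 2.65 after SIINFEKL (2.34 ± 0.17, adjusted p = 8.78e-07). The transcription factor E2f1 was higher by 2.28 ± 0.22 (adjusted p = 5.82e-06), the kinase Cdk2 by 1.57 ± 0.17 and cyclin D3 (Ccnd3) by 1.19 ± 0.13. The 3 lower genes, named after their values were seen, were the kinase inhibitor Cdkn1b, the pocket protein Rbl2 and cyclin D2 (Ccnd2). Cdkn1b had 4.89, 4.48 and 4.42 after OVA and 5.75 and 5.35 after SIINFEKL (-0.95 ± 0.19, adjusted p = 0.0017), and Rbl2 (-0.38 ± 0.12, adjusted p = 0.0242) did not pass without SIINFEKL replicate 2 (adjusted p = 0.144) or without OVA replicate 1 (adjusted p = 0.0865). Myc, a growth regulator induced early after T cell stimulation, had 5.44, 5.68 and 5.58 after OVA and 4.95 and 5.62 after SIINFEKL against 6.29 in Naive cells, and did not pass (0.28 ± 0.23, adjusted p = 0.344), with an interval of the difference from -0.22 to 0.78.

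Enzymes that make nucleotides were higher after OVA in 18 of 20 members, where 22.4% of all genes were, with a median of 1.29. Umps, which completes uridine monophosphate, had 4.73, 4.64 and 4.73 after OVA and 2.88 and 2.99 after SIINFEKL, against 3.36 in Naive cells (1.76 ± 0.12, adjusted p = 3.72e-07). Impdh2, the rate-limiting enzyme of guanine nucleotide synthesis, had 7.52, 7.56 and 7.64 after OVA and 5.74 and 6.16 after SIINFEKL (1.62 ± 0.12, adjusted p = 9.32e-07). Shmt1 and Mthfd1, which supply folate-bound single-carbon units, were higher by 1.82 ± 0.16 and 1.74 ± 0.18. Both SIINFEKL libraries lay below all Naive libraries in 15 of the 20 genes, where 24.8% of all genes did. All OVA libraries lay above the Naive libraries in 18, where 28.7% of all genes did. Of the 20 members, 17 were higher without SIINFEKL replicate 1 and 19 without replicate 2.

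Of 17 glycolysis genes tested (of 19 listed), 12 were higher and 1 lower after OVA, where 22.4% and 19.9% of all genes were. The median was 0.87. Tpi1, triose phosphate isomerase, had 7.31, 7.36 and 7.50 after OVA and 5.45 and 5.20 after SIINFEKL (2.06 ± 0.14, adjusted p = 3.72e-07). Pgk1, the first step that yields ATP, was higher by 1.66 ± 0.15, Gapdh by 1.36 ± 0.12 and Pgam1 by 1.20 ± 0.10 (adjusted p between 2.08e-06 and 3.63e-06). The steps from aldolase to lactate dehydrogenase all rose, while the glucose carriers did not: Slc2a1 differed by 0.12 ± 0.14 (adjusted p = 0.536), and Slc2a3, named after its values were seen, was the lower member (-0.38 ± 0.13, adjusted p = 0.0344). The call of Slc2a3 did not hold without SIINFEKL replicate 2 or without any OVA library (adjusted p = 0.321 without SIINFEKL replicate 2). Several of these enzymes have processed pseudogenes, and how reads shared with such copies were counted is not given in the sources used here.

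**Figure D3:**
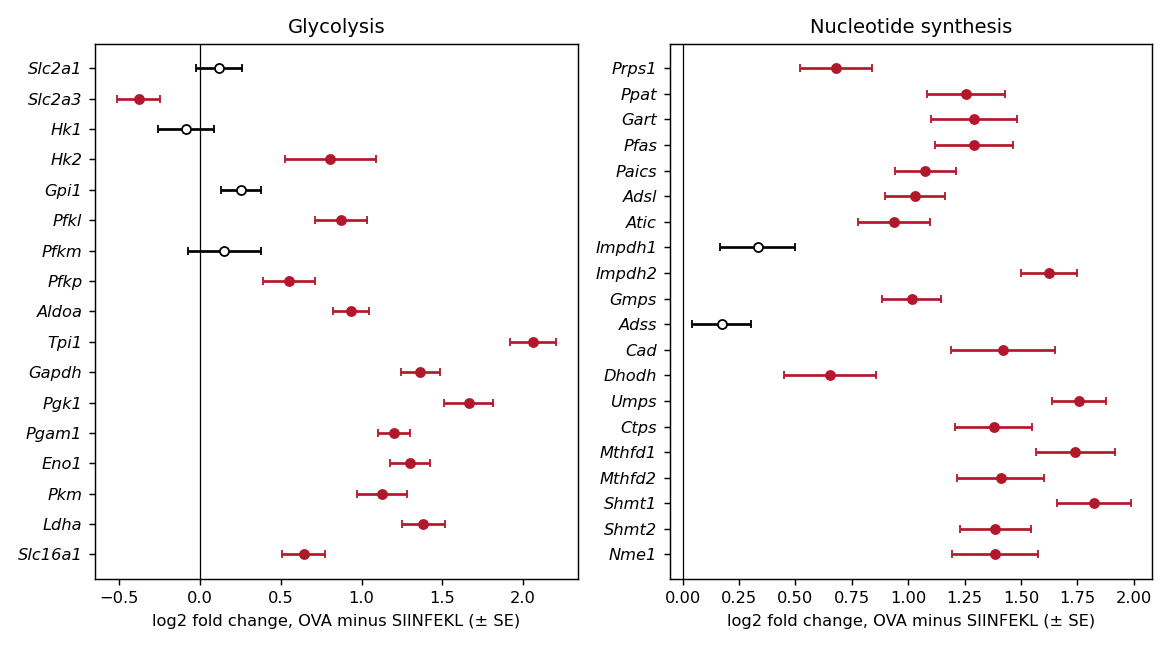
Log2 fold change, OVA minus SIINFEKL (points, with bars of ± SE from limma), of glycolysis and nucleotide synthesis genes in pathway order; filled red points passed the adjusted p of 0.05. Of 17 glycolysis genes 12 are higher and Slc2a3 is lower after OVA, and 18 of 20 nucleotide synthesis genes are higher.

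Mitochondrial and cholesterol enzymes rose too, by less. Over all genes 22.4% were higher after OVA. Of 31 subunits of oxidative phosphorylation, 26 were higher after OVA (median 0.78; 25 without SIINFEKL replicate 1, 20 without replicate 2 and 24 without OVA replicate 1), and all 31 lay above both SIINFEKL libraries in every OVA library, where 30.2% of all genes did. Atp5b, the catalytic subunit of ATP synthase, had 9.59, 9.48 and 9.54 after OVA and 8.15 and 8.46 after SIINFEKL (1.23 ± 0.12, adjusted p = 5.78e-06). Cyc1 of complex III rose by 1.10 ± 0.12, Cox5a of complex IV by 1.16 ± 0.15 and Ndufv1 of complex I by 0.92 ± 0.11. In this list OVA replicate 1 was higher than the other OVA libraries, with a median above Naive of 0.95 against 0.53 and 0.58; with a correction for gene length and GC content the median was 0.65 and 27 genes were higher. In cholesterol synthesis 10 of 24 genes were higher and none lower (median 0.32), where 22.4% and 19.9% of all genes were. Among the higher genes were Idi1 (1.39 ± 0.20), the farnesyl diphosphate synthase Fdps (1.06 ± 0.15) and the sterol demethylase Cyp51 (0.86 ± 0.13).

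Genes that build ribosomes and fold proteins lay below the resting level after SIINFEKL. The share of all genes that were higher after OVA was 22.4%. Of 23 ribosome biogenesis genes, 18 were higher after OVA (median 0.80; 12 without SIINFEKL replicate 1 and 18 without replicate 2). Fbl, the nucleolar methyltransferase fibrillarin, had 7.65, 7.48 and 7.55 after OVA and 6.14 and 6.71 after SIINFEKL, against 7.34 in Naive cells (1.14 ± 0.14, adjusted p = 4.29e-05). The snoRNP proteins Nop56 and Nop58 were higher by 1.30 ± 0.19 and 1.28 ± 0.14, and the nucleolar chaperone Npm1 by 1.01 ± 0.14. Both SIINFEKL libraries lay below all Naive libraries in 22 of the 23 genes, where 24.8% of all genes did. All OVA libraries lay above them in 9, where 28.7% of all genes did. Here SIINFEKL replicate 1 was the lower library, in 22 of 23 genes, by a median of 0.48, the reverse of the order seen in mitotic genes.

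All 22 chaperones tested were higher after OVA, with a median of 1.02, and 21 passed without SIINFEKL replicate 1 and 21 without replicate 2. Hsp90aa1, the inducible cytosolic HSP90, had 8.38, 8.26 and 8.55 after OVA and 6.09 and 6.74 after SIINFEKL, against 7.39 in Naive cells (1.99 ± 0.20, adjusted p = 7.7e-06). Hspd1, the mitochondrial chaperonin HSP60, rose by 1.80 ± 0.19, the oxidoreductase Pdia6 of the endoplasmic reticulum by 1.44 ± 0.13 and Hsp90ab1 by 1.38 ± 0.13. Sdf2l1, another chaperone partner of the endoplasmic reticulum, had 5.96, 5.42 and 5.53 after OVA and 3.14 and 2.90 after SIINFEKL (2.62 ± 0.17, adjusted p = 3.15e-07). All 22 list members were below every Naive library in both SIINFEKL libraries, where 24.8% of all genes were. In all OVA libraries 20 were above every Naive library, where 28.7% of all genes were. The higher genes of the list included chaperones of the cytosol, of mitochondria and of the endoplasmic reticulum. By comparison, 22.4% of all genes were higher after OVA.

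The proteasome and the supply of amino acids followed. Over all genes 22.4% were higher and 19.9% lower after OVA. Of 30 proteasome subunits 24 were higher and none lower (median 0.77; 22 without SIINFEKL replicate 1, 16 without replicate 2 and 19 without OVA replicate 1). Psmd1, a scaffold of the regulatory particle, had 6.17, 5.95 and 6.17 after OVA and 4.70 and 4.80 after SIINFEKL (1.35 ± 0.10, adjusted p = 1.09e-06), and the ATPase subunits Psmc1 and Psmc5 were higher by 1.10 ± 0.11 and 0.93 ± 0.11. Among 19 genes of amino acid supply and tRNA charging 14 were higher and none lower (median 0.65). Psat1 and Phgdh of serine synthesis were higher by 1.89 ± 0.20 and 1.50 ± 0.15, the large neutral amino acid carrier Slc7a5 by 1.65 ± 0.22 and the methionyl-tRNA synthetase Mars by 1.02 ± 0.14. Slc7a5 had 4.40, 4.90 and 4.86 after OVA and 2.79 and 3.35 after SIINFEKL, against 4.22 in Naive cells. The 35 cytosolic ribosomal proteins differed little: 2 passed, Rps2 (1.21 ± 0.17, adjusted p = 9.36e-05) and Rpl14 (0.71 ± 0.22, adjusted p = 0.0211, not held without either SIINFEKL library or without OVA replicate 1, adjusted p 0.0719 to 0.085), and the median was 0.21, or 0.00 after quantile normalization. The share that passed was below the 22.4% of all genes that were higher after OVA. All OVA values lay above both SIINFEKL values in 10 of the 35, near the 30.2% of all genes. In 30 of the 35, both SIINFEKL libraries were below all Naive libraries, where 24.8% of all genes were. All OVA libraries were below the Naive libraries in 5, where 31.1% of all genes were. The list median relative to Naive was 0.06, -0.42 and -0.54 in OVA replicates 1 to 3. It was -0.56 and -0.46 in SIINFEKL replicates 1 and 2, so OVA replicates 2 and 3 lay about as low.

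Among rises with like levels in both SIINFEKL libraries, Tuba1b and Dctpp1 belonged to no list and were among the largest rises. Tuba1b, an alpha-tubulin, had 10.38, 10.18 and 10.26 after OVA and 7.88 and 7.61 after SIINFEKL (2.53 ± 0.13, adjusted p = 6.84e-08), and reads of near-identical alpha-tubulin genes may be shared with it. Dctpp1, which clears non-canonical dCTP, had 6.27, 5.48 and 5.48 after OVA and 3.44 and 3.00 after SIINFEKL (2.53 ± 0.26, adjusted p = 1.07e-05).

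Among the cytotoxic genes described here, the granzymes Gzmk and Gzmb had the widest gaps. The other listed granzymes, Gzma and Gzmm, are not described. Of 18 cytotoxic genes 8 were higher and 1 lower after OVA, with a median of 0.46 (6 and 1 without SIINFEKL replicate 1, 7 and 1 without replicate 2). Of all genes, 22.4% were higher and 19.9% lower. Gzmk, a serine protease of effector and memory CD8+ T cells (chr13:113171608-113225908), had 4.39, 2.89 and 3.13 after OVA and -0.73 and -0.31 after SIINFEKL. The SIINFEKL level was near that of Naive cells (mean -0.28). The log2 fold change was 3.98 ± 0.43 (adjusted p = 1.43e-05), and 3.52 without OVA replicate 1, the library with the highest value. Gzmb, the main death-inducing granzyme, had 5.66, 4.34 and 4.47 after OVA and 0.78 and 2.16 after SIINFEKL, against 3.17 in Naive cells (3.36 ± 0.45, adjusted p = 7.68e-05). All OVA values of Gzmb lay above the Naive libraries (2.77 to 3.53) and both SIINFEKL values lay below them. Serpinb9, which protects the killer cell from its own granzyme B, was higher by 1.52 ± 0.28 (adjusted p = 0.000836) and Klrk1, the activating receptor NKG2D, by 1.05 ± 0.23 (adjusted p = 0.00241). The pore protein Prf1 did not pass (4.34, 4.49 and 4.23 after OVA, 4.19 and 5.04 after SIINFEKL, -0.26 ± 0.22, adjusted p = 0.37; -0.68 without SIINFEKL replicate 1, adjusted p = 0.0261, and 0.17 without replicate 2), nor did Ifng, whose OVA libraries were themselves spread (2.80, 4.32 and 4.39 after OVA, 3.43 and 2.20 after SIINFEKL, 1.02 ± 0.87, adjusted p = 0.363). The lower gene was Srgn, the granule proteoglycan, named after its values were seen (-0.45 ± 0.17, adjusted p = 0.0499), a call that was lost without SIINFEKL replicate 1 (adjusted p = 0.29) and without OVA replicate 2 or 3. NK cell markers were highest in OVA replicate 1, as Gzmk and Gzmb were. Both genes passed without that library, and the part of NK cells in their differences was not tested.

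Among 12 cytokine genes 2 passed, both higher after OVA, where 22.4% of all genes were. Mif, a cytokine stored ready-made, was higher by 1.27 ± 0.15 (adjusted p = 3.36e-05), and the chemokine Ccl5 had 8.33, 8.15 and 7.43 after OVA and 5.37 and 7.32 after SIINFEKL (1.62 ± 0.60, adjusted p = 0.0414), a call that was lost without SIINFEKL replicate 1 (0.65, adjusted p = 0.453) or without OVA replicate 1 (1.44, adjusted p = 0.106) or 2 (adjusted p = 0.0908). The abundant Ltb and Tgfb1 did not pass (-0.37 ± 0.19 and 0.11 ± 0.12). Ltb was lower without SIINFEKL replicate 1 (-0.62, adjusted p = 0.0408), after quantile normalization and after correction for length and GC content, and differed by -0.13 without SIINFEKL replicate 2.

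Transcription factors of effector differentiation included 4 higher genes and no lower gene among 14 (median 0.63), a share of higher genes near the 22.4% of all genes. Irf8, an interferon regulatory factor induced in activated CD8+ T cells and abundant in dendritic cells, had 4.32, 4.15 and 4.32 after OVA and 1.85 and 2.46 after SIINFEKL, against 1.58 in Naive cells (2.11 ± 0.28, adjusted p = 6.5e-05). The class II markers summed to 68.3 RPKM in OVA replicate 1 and 11.4 RPKM in OVA replicate 3. Whether they relate to the Irf8 level was not tested. The dendritic cell integrin Itgax moved the same way (1.68, 1.27 and 1.35 after OVA, -0.38 and 0.27 after SIINFEKL, 1.49 ± 0.36, adjusted p = 0.00505; 0.0556 without SIINFEKL replicate 1), and its part in the Irf8 difference was not tested. Tbx21, the master factor T-bet, had 5.24, 4.85 and 4.72 after OVA and 4.19 and 3.48 after SIINFEKL (1.11 ± 0.25, adjusted p = 0.0029). Irf4, whose level follows the strength of T cell receptor signals, rose by 0.99 ± 0.29 (adjusted p = 0.0148), a call that was lost without SIINFEKL replicate 2 (0.57, adjusted p = 0.185), and Batf (0.54 ± 0.18, adjusted p = 0.0279) was lost without either SIINFEKL library (adjusted p = 0.0524 and 0.14) and without OVA replicate 1. Eomes, a factor of effector and memory cells, had 5.18, 5.38 and 5.49 after OVA and 3.61 and 5.65 after SIINFEKL, so that the OVA values lay between the SIINFEKL libraries (0.72 ± 0.40, adjusted p = 0.165), and it passed without SIINFEKL replicate 2 (1.74, adjusted p = 0.000169).

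Among receptors for interleukin 2 and interleukin 12, the inducible chains Il2ra and Il12rb2 were higher after OVA. Il2ra, the high-affinity chain CD25, had 0.842, 0.764 and 0.969 RPKM after OVA and 0.0739 and 0.0855 RPKM after SIINFEKL, against 0.987 to 2.16 RPKM in Naive cells. On the log2 scale the difference was 3.43 ± 0.45 (adjusted p = 6.5e-05), but the SIINFEKL values are among the lowest of the table and the difference was 0.78 after 1 RPKM was added. Il12rb2, the inducible chain of the interleukin 12 receptor, had 2.00, 2.13 and 1.78 after OVA and -1.37 and -0.01 after SIINFEKL, against 2.25 in Naive cells (2.66 ± 0.36, adjusted p = 9.23e-05). Of 18 interleukin and cytokine receptor chains, 2 were higher and 6 lower, where 22.4% and 19.9% of all genes were. The lower ones included the interleukin 27 receptor Il27ra (-0.78 ± 0.10), the signal transducer Il6st (-0.89 ± 0.11) and the type I interferon receptor chain Ifnar1 (-0.82 ± 0.11). Each was also lower against either SIINFEKL library alone. The other higher chain, Il12rb1 (0.46 ± 0.18, adjusted p = 0.0476), was named after its values were seen and was lost without any of the 5 libraries.

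In the activation list 4 of 16 genes were higher and 1 lower, with a median of 0.26, and the share of higher genes was near the 22.4% of all genes. Ly6a (Sca-1), which interferons and activation raise, had 6.58, 5.75 and 6.30 after OVA and 2.43 and 4.13 after SIINFEKL, against 5.13 in Naive cells (2.93 ± 0.49, adjusted p = 0.000415). Tfrc, the transferrin receptor of growing cells, had 5.23, 5.06 and 5.28 after OVA and 4.12 and 4.04 after SIINFEKL (1.11 ± 0.21, adjusted p = 0.0012). Cd81 rose by 1.02 ± 0.27 (adjusted p = 0.00936, and 0.0751 without SIINFEKL replicate 2). The lower gene was the co-stimulator Icos, named after its values were seen (-0.58 ± 0.16, adjusted p = 0.0103; 0.193 without SIINFEKL replicate 1). Cd44, the classical marker of antigen-experienced T cells, did not pass: 5.26, 5.46 and 5.54 after OVA stood beside 5.25 and 5.26 after SIINFEKL (0.17 ± 0.16, adjusted p = 0.425), while Naive cells averaged 4.45.

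**Figure D4:**
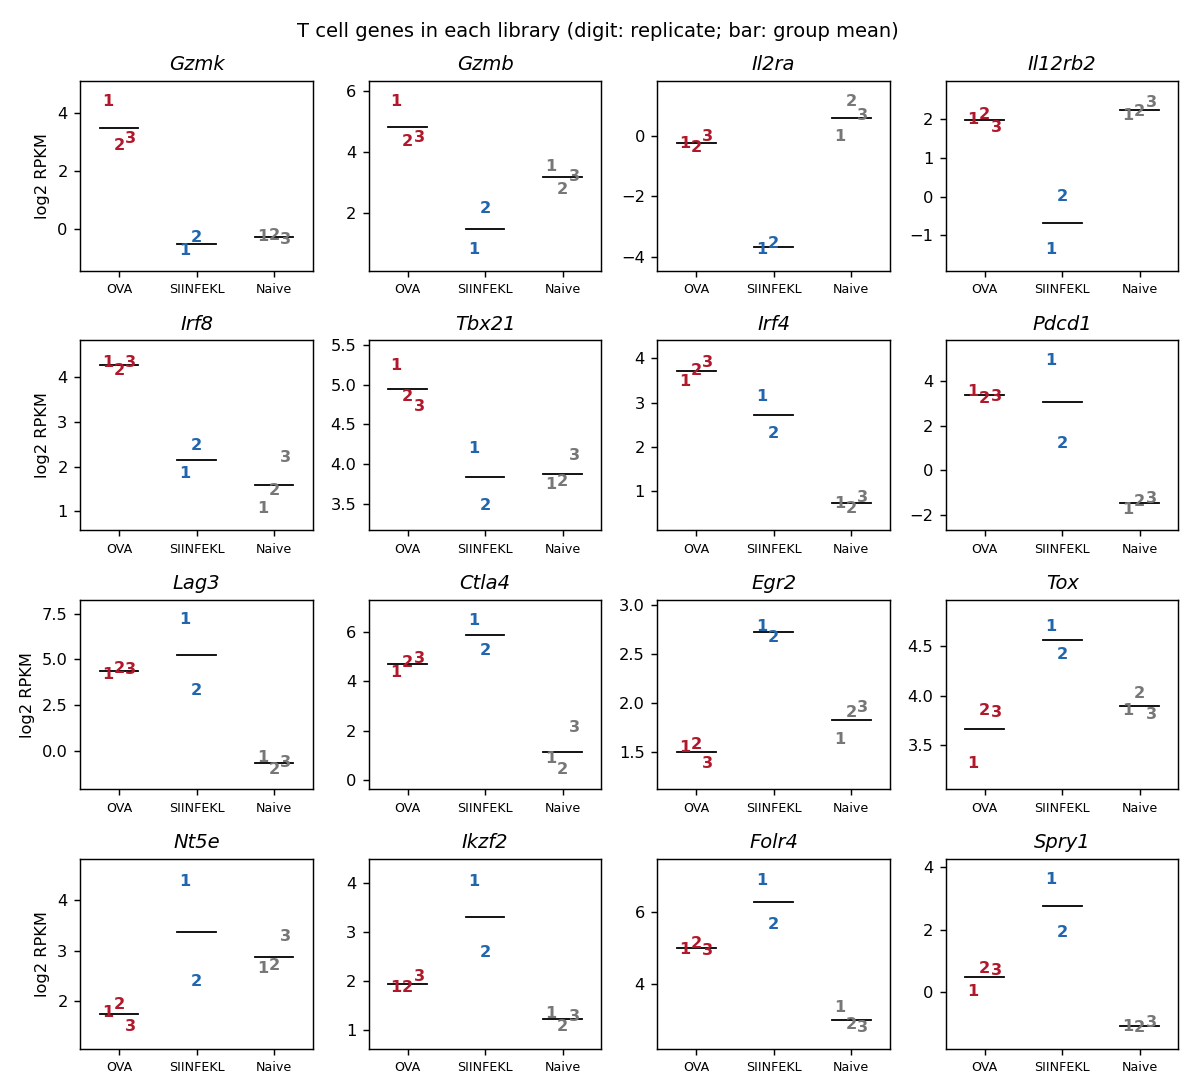
Log2 RPKM of 16 T cell genes in each OVA, SIINFEKL and Naive library; digits are replicate numbers and bars are group means, and each panel has its own scale. Gzmk is near the Naive level in both SIINFEKL libraries, whereas for Pdcd1 and Lag3 the 3 OVA libraries lie between the SIINFEKL libraries.

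The inhibitory receptors did not divide the antigens as a list, because the SIINFEKL libraries disagreed. Of 10 tested (of 12 listed) 1 was higher and 1 lower, below the 22.4% and 19.9% of all genes, with a median of -0.01. Without SIINFEKL replicate 1, 4 were higher and none lower, and without replicate 2, 1 was higher and 5 lower. Pdcd1, which encodes PD-1, had 3.53, 3.20 and 3.32 after OVA and 4.91 and 1.22 after SIINFEKL, against -1.47 in Naive cells. The log2 fold change was 0.28 ± 0.67 (adjusted p = 0.751), 2.13 without SIINFEKL replicate 1 (adjusted p = 4.96e-06) and -1.56 without replicate 2 (adjusted p = 9.43e-05). Lag3, a receptor for MHC class II, had 4.16, 4.50 and 4.44 after OVA and 7.18 and 3.31 after SIINFEKL, against -0.66 in Naive cells (-0.88 ± 0.70, adjusted p = 0.331; 1.05 without SIINFEKL replicate 1 and -2.81 without replicate 2). For both receptors every OVA and SIINFEKL library lay above all Naive libraries, and no direction between the antigens can be given. Ctla4, which competes with CD28 for its ligands, had 4.35, 4.78 and 4.94 after OVA and 6.49 and 5.27 after SIINFEKL, against 1.15 in Naive cells (-1.19 ± 0.48, adjusted p = 0.0593). All OVA values of Ctla4 were below both SIINFEKL values, and it passed without SIINFEKL replicate 2 (-1.80, adjusted p = 0.0219). Tigit did not pass (0.32 ± 0.41, adjusted p = 0.542).

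2 inhibitory receptors passed. Lair1, a collagen receptor, had 3.78, 2.97 and 3.30 after OVA and 1.20 and 0.86 after SIINFEKL, against 2.49 in Naive cells (2.32 ± 0.28, adjusted p = 3.36e-05), with like values against either SIINFEKL library. Btla, the ligand-binding partner of HVEM, had 4.42, 3.66 and 4.15 after OVA and 5.46 and 4.62 after SIINFEKL (-0.96 ± 0.25, adjusted p = 0.00782), a call that was lost without SIINFEKL replicate 1 (-0.54, adjusted p = 0.131).

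Genes of anergy and of T cell receptor attenuation were lower after OVA. Of 18 tested, 11 were lower and 1 higher, where 19.9% and 22.4% of all genes were, with a median of -0.65 (6 lower without SIINFEKL replicate 1, 10 without replicate 2 and 8 without OVA replicate 1). Egr2, a transcription factor induced through calcium signalling and needed for anergy in CD4+ T cells, had 1.55, 1.58 and 1.39 after OVA and 2.79 and 2.67 after SIINFEKL, against 1.83 in Naive cells (-1.22 ± 0.16, adjusted p = 6.41e-05). The OVA libraries were all below Naive cells for Egr2 and the SIINFEKL libraries both above. Tox, a nuclear factor known from chronically stimulated CD8+ T cells, had 3.31, 3.84 and 3.83 after OVA and 4.71 and 4.42 after SIINFEKL (-0.90 ± 0.17, adjusted p = 0.00115). Dgka, the kinase that consumes diacylglycerol, had 7.52, 7.73 and 7.70 after OVA and 8.30 and 8.38 after SIINFEKL (-0.69 ± 0.12, adjusted p = 0.000655). For these 3 genes the SIINFEKL libraries were close to each other.

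For Nt5e, Folr4, Ikzf2 and Nrp1, used as markers of anergic T cells, the size of the difference depended on SIINFEKL replicate 1. They were named after their values were seen. Nt5e, which encodes CD73, had 1.78, 1.95 and 1.51 after OVA and 4.37 and 2.39 after SIINFEKL (-1.63 ± 0.40, adjusted p = 0.0052; -0.65 without SIINFEKL replicate 1, adjusted p = 0.0705). Folr4, the folate receptor family member FR4, had 4.95, 5.12 and 4.93 after OVA and 6.90 and 5.66 after SIINFEKL, against 2.99 in Naive cells (-1.28 ± 0.28, adjusted p = 0.00292; -0.66 without SIINFEKL replicate 1, adjusted p = 0.0479). Ikzf2, the factor Helios, differed by -1.37 ± 0.31 (adjusted p = 0.00345; -0.65 without SIINFEKL replicate 1, adjusted p = 0.0515). Nrp1, a co-receptor for semaphorins, had 1.50, 2.11 and 2.06 after OVA and 5.31 and 1.15 after SIINFEKL and did not pass (-1.34 ± 0.78, adjusted p = 0.182; -3.43 without SIINFEKL replicate 2, adjusted p = 2.51e-05). The higher member of the list was Ndrg1, which has been tied to anergy in CD4+ T cells, with 4.95, 5.00 and 5.20 after OVA and 2.95 and 3.60 after SIINFEKL (1.77 ± 0.19, adjusted p = 1.29e-05).

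Of 9 feedback inhibitors of ERK signalling 1 was higher and 1 lower after OVA, below the 22.4% and 19.9% of all genes. Spry1, a Sprouty protein that blunts RAS signalling, had 0.04, 0.76 and 0.70 after OVA and 3.58 and 1.92 after SIINFEKL, against -1.07 in Naive cells (-2.25 ± 0.47, adjusted p = 0.00207; -1.42 without SIINFEKL replicate 1 and -3.08 without replicate 2). Of the 9 genes of this list Spry1 was lower and Dusp4, a nuclear MAP kinase phosphatase, was higher (1.48 ± 0.55, adjusted p = 0.0431; 0.80 without SIINFEKL replicate 1, adjusted p = 0.352, and also lost without OVA replicate 2 or 3). Among 13 immediate-early genes, which also respond to cell handling, Btg2 (-0.73 ± 0.18, adjusted p = 0.00499) and Egr1 (-0.68 ± 0.18, adjusted p = 0.00885; 0.121 without SIINFEKL replicate 2) were lower and none was higher. That share of lower genes was below the 19.9% of all genes. SIINFEKL replicate 2 was the higher of its pair in 11 of these 13 genes, by a median of 0.50. OVA replicate 1 had the lowest OVA median relative to Naive (-1.21, against -0.16 and -0.63).

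**Figure D5:**
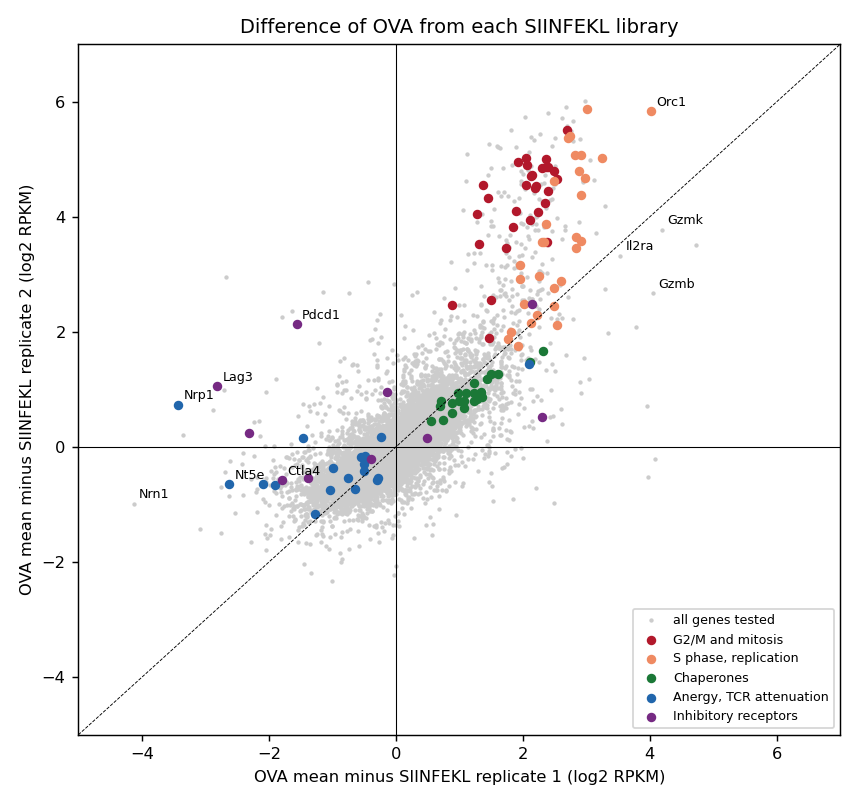
Mean log2 RPKM of OVA minus SIINFEKL replicate 1 (horizontal) and minus SIINFEKL replicate 2 (vertical) for each gene tested, with 5 gene lists coloured and the line of equality dashed. G2/M genes lie above the line, chaperones near it, and Pdcd1, Lag3 and Nrp1 lie in the quadrant where the 2 libraries give opposite signs.

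The T cell receptor complex itself differed little. Of 16 receptor, co-receptor and proximal signalling genes 4 were lower after OVA, a share near the 19.9% of all genes, and none higher (median -0.24); 13 were lower after quantile normalization, and none passed when only the 5 libraries of the 2 groups were fitted. Cd3e had 8.31, 8.36 and 8.24 after OVA and 8.69 and 8.69 after SIINFEKL (-0.39 ± 0.10, adjusted p = 0.00817). Cd8a (-0.31 ± 0.11, adjusted p = 0.0409) was lost without SIINFEKL replicate 1 (adjusted p = 0.244) and without any OVA library (adjusted p = 0.0649 without OVA replicate 1), with the replicate block and with array weights. Cd3g (-0.49 ± 0.16, adjusted p = 0.0272) and Cd5 (-0.41 ± 0.11, adjusted p = 0.0116) were lost without SIINFEKL replicate 2 (adjusted p = 0.179 and 0.0921), Cd3g also without OVA replicate 2 or 3.

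Genes of naive and memory T cells were lower after OVA in 13 of 23 members and higher in 1, with a median of -0.44 (10 lower without SIINFEKL replicate 1 and 7 without replicate 2). Over all genes 19.9% were lower and 22.4% higher. Myb, a factor that sustains memory stem cells, had 3.50, 3.74 and 3.82 after OVA and 4.78 and 5.41 after SIINFEKL. Both groups were above Naive cells at 1.76, and OVA was lower than SIINFEKL (-1.41 ± 0.24, adjusted p = 0.000446). S1pr1, the receptor that lets T cells leave lymphoid tissue, had 6.26, 6.26 and 6.14 after OVA and 6.99 and 7.13 after SIINFEKL, against 7.38 in Naive cells (-0.84 ± 0.12, adjusted p = 0.00015). The sialyltransferase St6gal1 (-0.94 ± 0.14) and the quiescence factor Foxp1 (-0.65 ± 0.14) were lower as well. Tcf7, the factor TCF-1, had 9.04, 9.49 and 9.31 after OVA and 9.49 and 9.83 after SIINFEKL and did not pass (-0.38 ± 0.16, adjusted p = 0.0775), though it did after quantile normalization, after correction for length and GC content and without OVA replicate 2. Il7r had 5.21, 5.48 and 5.22 after OVA and 5.48 and 5.43 after SIINFEKL, with 7.27 in Naive cells, and did not pass (-0.15 ± 0.23, adjusted p = 0.632). The higher gene, named after its values were seen, was Igfbp4, a gene of resting T cells, with 4.91, 4.95 and 4.27 after OVA and 2.72 and 3.09 after SIINFEKL, against 6.74 in Naive cells (1.80 ± 0.41, adjusted p = 0.00327).

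Interferon-response genes were lower after OVA in 10 of 23 members and higher in none, with a median of -0.73, but only 3 passed without SIINFEKL replicate 2 (11 without replicate 1). The share of lower genes was above the 19.9% of all genes with both SIINFEKL libraries, but not above that of all genes without replicate 2. Stat2 and Irf9, subunits of the interferon-activated factor ISGF3, were the firmest. Stat2 had 2.68, 2.57 and 2.73 after OVA and 3.82 and 3.74 after SIINFEKL, against 2.87 in Naive cells (-1.12 ± 0.15, adjusted p = 9.55e-05), and Irf9 had 4.49, 4.19 and 4.37 after OVA and 5.43 and 5.26 after SIINFEKL (adjusted p = 0.000195). The exonuclease Isg20 was lower (-0.95 ± 0.25, adjusted p = 0.00808), and the RNA sensor Ddx58 (-0.68 ± 0.16, adjusted p = 0.00358) was lost without SIINFEKL replicate 2 (adjusted p = 0.0531). Slfn5, a Schlafen gene that interferon also raises, had 2.35, 2.28 and 2.65 after OVA and 3.76 and 4.61 after SIINFEKL (-1.76 ± 0.26, adjusted p = 0.000162). Of the 23 list members, 15 lay below all Naive libraries after OVA, where 31.1% of all genes did, and 8 lay above them in both SIINFEKL libraries, where 21.4% did.

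The largest falls outside these lists were those of genes at modest levels. Nrn1, which encodes neuritin, had 1.37, 2.64 and 2.44 after OVA and 6.28 and 3.14 after SIINFEKL, against -0.76 in Naive cells (-2.56 ± 0.66, adjusted p = 0.00736), a difference of -0.99 without SIINFEKL replicate 1 (adjusted p = 0.127). Adamts6, a secreted protease, had 0.33, 0.98 and 0.79 after OVA and 3.45 and 2.19 after SIINFEKL (-2.12 ± 0.35, adjusted p = 0.000417). Gm10521 (-1.84 ± 0.44) was lost without SIINFEKL replicate 1 (adjusted p = 0.0796), and the long noncoding RNA A530021J07Rik differed by -1.73 ± 0.33. Zbtb20, a transcriptional repressor (chr16:42875881-43642602), had 0.32, 0.56 and 0.49 after OVA and 2.49 and 2.03 after SIINFEKL, against 1.91 in Naive cells (-1.80 ± 0.20, adjusted p = 2.11e-05). All OVA values of Zbtb20 lay below the Naive libraries (1.70 to 2.19), and the SIINFEKL values did not. Other falls in which the SIINFEKL libraries were within 0.5 of each other were Fam214b (-1.76 ± 0.25), the syntrophin Sntb1 (-1.70 ± 0.16), Gm14085 (-1.62 ± 0.17), Fam210b (-1.60 ± 0.20) and the CD30 ligand Tnfsf8 (-1.59 ± 0.17). Tnfsf8 had 2.45, 2.61 and 2.61 after OVA and 4.37 and 3.94 after SIINFEKL, against 3.43 in Naive cells.

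Bcl2l11, which encodes the death-promoting BH3-only protein BIM, had 4.22, 4.46 and 4.36 after OVA and 6.15 and 5.02 after SIINFEKL, against 4.85 in Naive cells (-1.24 ± 0.27, adjusted p = 0.00225; -0.68 without SIINFEKL replicate 1 and -1.81 without replicate 2). In the BCL-2 and caspase list of 17 genes 2 were higher and 3 lower, and of these only Bcl2l11 passed both without SIINFEKL replicate 1 and without replicate 2: Bcl2l1 (0.57 ± 0.16), Bak1 (0.35 ± 0.11) and Mcl1 (-0.35 ± 0.10) were lost without replicate 2 (adjusted p between 0.103 and 0.168), Bak1 also without OVA replicate 2 or 3 and Mcl1 without OVA replicate 3, and Casp9, named after its values were seen, without either and without OVA replicate 1 or 3. The counts of the BCL-2 and caspase list were near or below the 22.4% and 19.9% of all genes. In the trafficking list 4 of 17 were higher and 2 lower, again near or below those shares. Itgb1, the beta-1 integrin, had 7.64, 7.69 and 7.80 after OVA and 7.24 and 6.16 after SIINFEKL, against 5.57 in Naive cells (1.01 ± 0.23, adjusted p = 0.00351; 1.55 without SIINFEKL replicate 1 and 0.47 without replicate 2). The chemokine receptors Ccr9 (1.93 ± 0.49) and Ccr2 (1.51 ± 0.42) passed, but neither did without SIINFEKL replicate 1 (adjusted p = 0.123 and 0.207). The selectin ligand Selplg (-0.52 ± 0.13) was lost without SIINFEKL replicate 2 (adjusted p = 0.0746) and the sphingosine phosphate receptor S1pr4 (-0.44 ± 0.15), named after its values were seen, without replicate 1 (adjusted p = 0.343) or without OVA replicate 3. Of 8 Gimap GTPases, a family of lymphocyte survival, 5 were lower and none higher (median -0.46), where 19.9% and 22.4% of all genes were. Some of these calls were lost without SIINFEKL replicate 2. They were led by Gimap8, with 5.56, 5.42 and 5.49 after OVA and 6.48 and 6.24 after SIINFEKL (-0.87 ± 0.11, adjusted p = 5.33e-05). Gimap3 followed (-0.67 ± 0.10, adjusted p = 0.000216).

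In 603 genes (6.16% of those tested) all 3 OVA libraries lay between the SIINFEKL libraries, and in 172 of them the SIINFEKL libraries were over 2-fold apart. SIINFEKL replicate 1 was the higher library in 279 of the 603 and replicate 2 in 324. The widest gaps, chosen after the values were seen, included Lag3, Pdcd1 and Nrp1, given above, and the following genes. Nrgn, which encodes the calmodulin-binding protein neurogranin, had 1.29, 1.33 and 1.55 after OVA and 4.07 and -1.55 after SIINFEKL (0.14 ± 1.04, adjusted p = 0.927). Slc16a5, a monocarboxylate carrier, had 2.31, 2.20 and 2.05 after OVA and -1.89 and 2.39 after SIINFEKL, and S100a4, a calcium-binding protein of effector and memory T cells, had 6.42, 5.55 and 5.49 after OVA and 6.56 and 3.14 after SIINFEKL. Igj, the immunoglobulin joining chain of plasma cells, had 1.80, 3.16 and 3.24 after OVA and -1.23 and 3.25 after SIINFEKL and 0.61 to 4.10 in Naive cells; the part of such transcripts in the other differences was not tested. For these genes the design, with 2 SIINFEKL libraries, gives no direction.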

How the data were processed

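The authors deposited 1 table of log2 RPKM per gene and library. Per the submitters' processing notes, bcl2fastq 2.17.1.14, STAR 2.4.2 and edgeR were used with GRCm38 (mm10); the read counter, annotation, prior count and scaling between libraries are not given in the sources used here. That the logarithm has base 2 was inferred from the values, since RPKM times gene length in kilobases then sums to 1763893 to 2042615 per library, nearer to the total to which RPKM is scaled than the 22637275 to 37605390 of base e. Counts and depth are not known, so no count test was run.

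The values were tested as deposited, with no pseudocount, after 313 of 10106 genes with a mean under 1 RPKM were left out. limma 3.58.1 (R 4.3.3) was fitted to the means of all 5 groups with a mean-variance trend, and OVA minus SIINFEKL was tested with Benjamini-Hochberg adjustment over 9793 genes at 0.05. Errors after ± are standard errors (SE) from this fit unless stated, and a lone SIINFEKL library, where the other was left out, was taken to be as variable as libraries elsewhere. Levels in the text are log2 RPKM unless RPKM is written. The script was tested on simulated data. Tables and figures used Python 3.11.15, pandas 2.3.3 and matplotlib 3.10.9.

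The gene lists and the groups compared were chosen with earlier results of these data known. Named genes were the 8 largest rises and 8 largest falls with no overlap and at least 4 RPKM in the higher group, 6 and 6 more with the SIINFEKL libraries within 0.5 of each other, up to 4 of each of the 27 lists by adjusted p with the most highly expressed members that did not pass where a list had few calls, and 18 well-known T cell genes whatever their result. Others were named after their values were seen, as marked, and some genes that these rules name are not reported here. Coordinates and lengths are from GENCODE vM21 (GRCm38), matched for 10027 genes, and promoters from RefSeq (GRCm38.p6). The alternatives were 18, among them quantile and median-of-ratios scaling, added pseudocounts, other filters, a replicate block, a correction for length and GC content, and each library left out.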

Additional observations from a re-analysis of the deposited data

How the results depend on the processing

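The 18 alternatives were computed for the counts of genes that passed and for the named genes, except that a mean of at least 3 RPKM left 156 of the 165 named genes; the gene lists were recounted under 7 of them. The 4135 genes that passed became 1097 when a fold of at least 2 was also required, and the 2189 higher and 1946 lower genes became 807 and 290. Leaving out 1 library of the comparison gave 3230 to 3741 genes, with 1857 to 2029 higher and 1373 to 1712 lower; the other alternatives gave between 3022 genes (only the OVA and SIINFEKL libraries fitted) and 4381 (length and GC correction). 3 log2 fold changes turned direction past the threshold, each on a single SIINFEKL library: Lag3 was 1.05 without SIINFEKL replicate 1 and -2.81 without replicate 2, Pdcd1 2.13 and -1.56, and Nrgn 2.94 and -2.68; the SIINFEKL libraries themselves differ that widely in these genes. After quantile normalization the median of the immediate-early list and of the BCL-2 and caspase list was -0.06 in each. The replicate numbers 1 and 2 are shared by the groups. As a pairing they gave correlations of the deviations from the group means of 0.19 and 0.276 for 2 pairs, which cannot decide whether the numbers mark anything shared; with the number as a replicate block 3988 genes passed, 2112 higher and 1876 lower. Sequencing depth is unknown, so no limit from counting can be given.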
